A study of Homo sapiens with 18 samples.

Results

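Trimethylation of histone H3 lysine 4 (H3K4me3) was profiled by Cut&Tag-sequencing in MOLM-13 cells, a human acute myeloid leukemia line that carries a KMT2A rearrangement (KMT2A-r). The 4 libraries labelled H3K4me3, 2 from cells given DMSO and 2 from cells given PR-957, were taken from a series of 18 libraries, of which 16 had a count file. The other files covered H3K27ac, H3K4me1 and H3K27me3 with 4 libraries each, under the same pair of treatments. PR-957 (ONX-0914) blocks PSMB8, the chymotrypsin-like catalytic subunit of the immunoproteasome, and was used at 100 nM. DMSO is the diluent. The labels give 72 h for both groups, while a legend of the study gives a shorter time. MOLM-13 is 1 cell line, and the labels do not say whether replicates came from separate cultures, so that p-values measured the spread between these libraries, which may be technical.

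H3K4me3 marks the promoters of active and poised genes. It is written by the SET1 and KMT2 methyltransferases, each working in a complex with WDR5, RBBP5, ASH2L and DPY30, and KMT2A itself binds promoters such as those of the HOXA genes. The fusion proteins of KMT2A-r leukemia lose the methyltransferase domain of KMT2A, and the unrearranged allele keeps it. The comparison asked where promoter H3K4me3 differed once the immunoproteasome had been inhibited, and whether KMT2A target genes were among those places.

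The table held 59230 intervals, many of which overlapped each other, with the count of every library in each interval. Overlapping intervals were merged to 16123 loci that covered 63.7 Mb, and the widest interval of a locus gave its count. Of these loci, 12453 held 4 intervals, the median length was 3513 bp, and 71.8% lay within 2 kb of the transcription start site (TSS) of a protein-coding gene. With 1 interval per locus, the counts summed to 11314680 and 10633533 in the DMSO libraries and to 7643484 and 7720766 in the PR-957 libraries. The PR-957 mean was 0.700 times the DMSO mean (exact permutation test over libraries, two-sided p = 0.333, the smallest that 2 against 2 allows). Counts were therefore scaled to the library size with TMM factors and are given as CPM, and a change in the amount of mark across the whole genome cannot be told apart from a difference in sequencing. In bulk cells, a change in the share of cells that carry the mark and a change per cell cannot be told apart either. The libraries correlated at 0.985 to 0.990 (log2 CPM over loci).

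The cells carried H3K4me3 at most genes of a short myeloid list. Of 10 myeloid genes, 9 had a promoter locus (all but MPO), at percentiles 40.3 to 97.6 of level per kb among all loci. A locus was also present at 2 of 5 B-cell, 3 of 5 T-cell and 2 of 5 erythroid genes and at 1 of 4 fibroblast and 1 of 4 epithelial genes. The highest percentiles of the B-cell, T-cell and erythroid genes were 52.9, 73.2 and 93.1. Of a longer list of 22 myeloid surface and granule genes, 10 had a locus, at a median percentile of 43.2. The summed level of the short myeloid list was 1843 and 1848 CPM in DMSO and 1782 and 1905 CPM in PR-957, and no gene of these lists was called.

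Part of the loci that gained H3K4me3 shared a short sequence, which is printed here because the results below return to it. The 9 letters TGACTCAGC are the form in which the antioxidant response element, bound by NFE2L2 (NRF2) with small MAF proteins, overlaps a site of AP-1. They were chosen after the promoters of ME1, AIFM2 and PIR had been read, so that their share among these loci is a description. The stretches are from hg38, read on the strand that carries TGACTCAGC, with 10 bases on each side and the 9 letters in capitals. They are shown for 11 of the 12 higher loci that held the letters, and the other, near NEFL, is named only.
ME1: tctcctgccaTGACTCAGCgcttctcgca
AIFM2: gggcggggcgTGACTCAGCactcgtgctg
PIR: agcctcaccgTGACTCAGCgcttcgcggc
HSF4 and NOL3: ccagagggctTGACTCAGCcacccctggc
UNKL: tgtgtcgcggTGACTCAGCggggccggtg
GADD45G: cgggcaggcgTGACTCAGCagcctgcgct
INF2: ttccggagcgTGACTCAGCaccgcagctg
KCNE3: ccccaattcaTGACTCAGCatcttacact
GPR55: agcctcccaaTGACTCAGCtgctccggag
HDAC4: cctgtctaacTGACTCAGCagcccctctg
DGKG: agggttggcaTGACTCAGCgagtgcatgc

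The ME1 stretch lies at chr6:83431170-83431198 (minus strand), between protein-coding genes and 129 bp from the nearest ME1 TSS of GENCODE. The stretch of AIFM2 is at chr10:70132829-70132857 (plus strand, against the direction of the gene), in an exon outside the coding part and 14 bp from a TSS. That of PIR is at chrX:15493289-15493317 (plus strand, against the gene), in an exon of PIR outside the coding part and an intron of BMX, 34 bp from the PIR TSS. The HSF4 and UNKL stretches, at chr16:67169129-67169157 and chr16:1379065-1379093 (both minus strand), lie in exons of HSF4 and UNKL outside the coding part, 65 and 46 bp from a TSS. The GADD45G stretch at chr9:89606367-89606395 (plus strand) is in an exon outside the coding part, 1339 bp from a TSS, and that of INF2 at chr14:104677908-104677936 (plus strand) lies between genes, 3228 bp from the INF2 TSS. In KCNE3 (chr11:74460905-74460933, minus strand), HDAC4 (chr2:239276330-239276358, plus strand) and DGKG (chr3:186242642-186242670, minus strand) the match is intronic. In GPR55 (chr2:230908755-230908783, minus strand) it is in an exon outside the coding part. The 250 bases before the RefSeq start of ME1 (GRCh38.p14, chr6:83431052-83431301, minus strand) show the match of the locus with the clearest gain in its promoter.
ME1 promoter: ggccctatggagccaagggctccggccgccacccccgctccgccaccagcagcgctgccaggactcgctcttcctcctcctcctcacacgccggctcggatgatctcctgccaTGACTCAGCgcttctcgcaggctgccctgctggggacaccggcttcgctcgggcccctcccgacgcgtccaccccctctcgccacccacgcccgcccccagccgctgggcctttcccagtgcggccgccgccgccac

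Few places in the genome differed in H3K4me3 between PR-957 and DMSO. Of 16122 loci that passed the count filter, 27 were higher after PR-957 (0.167%) and 5 were lower (0.0310%) at an adjusted p under 0.05 in edgeR's quasi-likelihood test, and 96.2% differed by less than 1.5-fold. At promoters, 20 of 11576 loci were higher and 4 lower. The fold of the higher loci ran from 1.32 to 2.58 with a median of 1.59, leaving aside a distal locus of few reads near TRA2B at 8.86, and that of the lower loci from 0.592 to 0.797. DESeq2 called 6 loci higher and 1 lower, all among these 32. The locus near TRA2B is among the 27 and the 6. It passed the count filter only through the PR-957 libraries, so that its call is no test. The number of calls changed when 1 library was left out, which sets 1 library against 2. Whether that or the library itself changed it was not tested. In simulated counts of the same size, the test recovered 77% of 2-fold, 62.5% of 1.5-fold and 23.5% of 1.25-fold changes among 200 changed loci each, and called 8, 7 and 2 unchanged loci. Changes under 1.25-fold were mostly not detectable with these libraries.

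**Figure D1:**
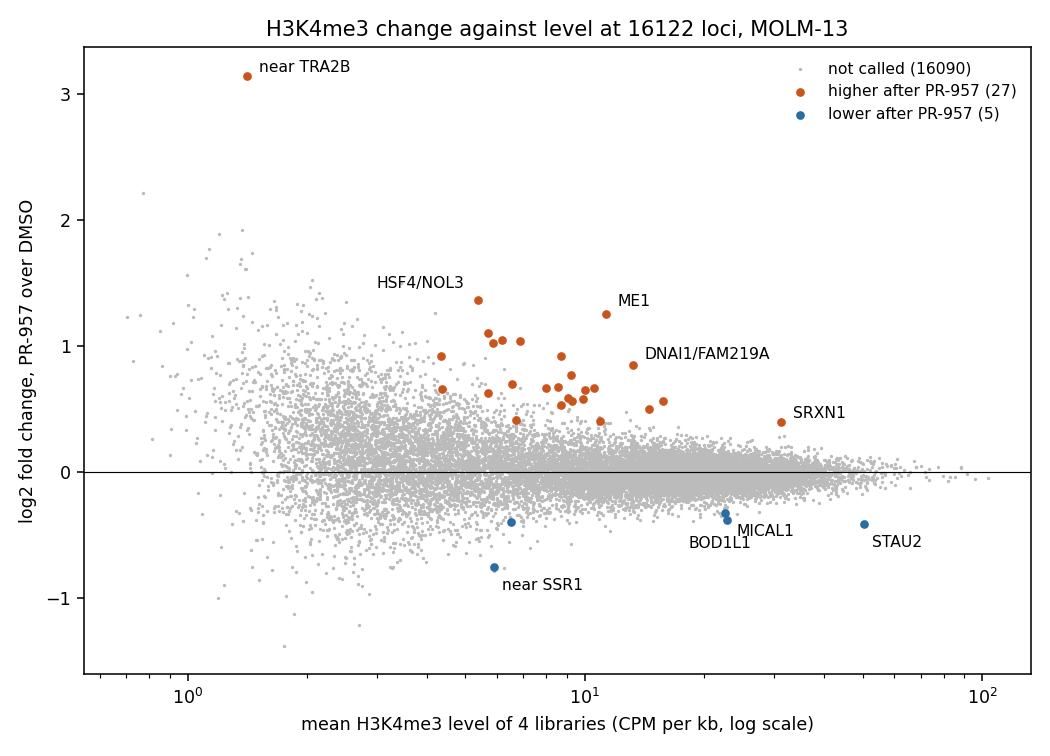
Log2 fold change of H3K4me3, PR-957 over DMSO, against the mean level of the 4 libraries in CPM per kb (log axis), with 1 point for each of the 16122 tested loci. The 27 higher loci (orange) lie mostly at middle and low levels and the 5 lower loci (blue) include STAU2 near the top of the level range, while unchanged loci spread more widely at low levels and sit above 0 there.

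Loci of low level were, on the whole, shifted upwards. With the loci in 5 equal classes of level per kb, the median log2 fold change was 0.17 in the lowest class and -0.02 in the highest, and after cyclic loess scaling, which levels this trend, it was -0.01 in the lowest class. Loci under 2 kb long had a median of 0.16. Of the 27 higher loci, 14 lay in the class above the lowest and 10 in the middle class, with 1 in each of the other classes, and cyclic loess scaling gave 34 higher loci.

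Among the promoters that gained H3K4me3 were those of 4 genes with known roles in redox biology, which were put side by side after their calls were seen. ME1 encodes the cytosolic malic enzyme, which makes NADPH, and SRXN1 encodes sulfiredoxin, which repairs overoxidised peroxiredoxins. PIR encodes pirin, a nuclear iron-binding protein, and AIFM2 encodes the ubiquinone reductase FSP1, which protects from ferroptosis. The ME1 locus (chr6:83429367-83431960) measured 17.1 and 16.6 CPM in DMSO and 37.8 and 42.7 CPM in PR-957. Both PR-957 libraries were far above both DMSO libraries. The log2 fold change was 1.25 ± 0.14 (SE, n = 2 against 2, edgeR adjusted p = 3.86e-14), and ME1 was called under all 15 alternative settings. DESeq2 gave an adjusted p of 6.77e-07 for ME1.

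SRXN1 (chr20:651156-654699) stood out by its level, at percentile 93.8, the highest of the promoters that gained the mark. It measured 88.8 and 88.5 CPM in DMSO and 115 and 118 CPM in PR-957, so that the replicates lay close together and the groups apart. The log2 fold change was 0.40 ± 0.08 (SE, n = 2 against 2, edgeR adjusted p = 0.00199). The promoter of PIR (chrX:15491799-15494034) rose from 10.2 and 9.54 CPM to 19.3 and 21.4 CPM. The groups did not overlap, which was also so at 5746 of all 16122 tested loci. Its log2 fold change was 1.04 ± 0.21 (SE, n = 2 against 2, edgeR adjusted p = 0.00137). AIFM2 (chr10:70131018-70134118) measured 23.5 and 18.5 CPM in DMSO and 35.7 and 36.0 CPM in PR-957, and its log2 fold change was 0.77 ± 0.14 (SE, n = 2 against 2, edgeR adjusted p = 8.92e-05). A distal locus 12757 bp from the TSS of TKT, transketolase of the pentose phosphate pathway, was called at 21.0 and 19.8 CPM in DMSO and 30.1 and 31.2 CPM in PR-957 (log2 fold change 0.58, edgeR adjusted p = 0.0461). It was named after its values were seen. AIFM2, PIR, SRXN1 and the TKT locus were not called without DMSO replicate 2, at 9 calls in all, nor by DESeq2, and the TKT locus was called under 8 of 15 alternatives and lost its call whichever library was left out.

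ME1 and SRXN1 were the called members of a list of 28 antioxidant target genes of NFE2L2, of which 22 had a promoter locus. Among all 12446 genes with a locus, 25 (0.201%) were called. At an unadjusted p under 0.05, 4 genes of the list were higher, against 2.75% of all genes, and 1 was lower, against 4.52%. The median log2 fold change of the list was 0.08, beside -0.02 over all genes, and 16 of 22 lay above 0, beside 5414 of all 12446. The uncalled pair were OSGIN1 (19.7 and 24.6 CPM in DMSO, 30.1 and 27.8 CPM in PR-957, edgeR adjusted p = 0.486) and GSR, glutathione reductase (175 and 178 CPM against 194 and 199 CPM, edgeR adjusted p = 0.724). The lower gene was FTL, ferritin light chain (log2 fold change -0.20, edgeR adjusted p = 0.509). Of other well known members, picked after their values were seen, TXNRD1 (log2 fold change -0.00), NQO1 (0.09) and GCLM (0.15) were near DMSO. HMOX1, at a low level of 6.30 to 9.89 CPM, had a log2 fold change of 0.34 and was not called (edgeR adjusted p = 0.913). No call was made among 10 genes for NRF1, NRF2 and their regulators, of which 9 lay above 0 with a median of 0.04. BACH2 (edgeR adjusted p = 0.856) and BACH1 (edgeR adjusted p = 0.877), repressors of these response elements, had the smallest p.

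The letters TGACTCAGC were found in 12 of the 27 higher loci (44.4%) and in 5.95% of all 16122 loci, on either strand anywhere in the locus. The median length was 3241 bp for the higher loci and 3513 bp for all. Within 1 kb at the centre, 5 of 27 higher loci (18.5%) and 1.76% of all loci held them. In RefSeq promoter windows, 250 bases before to 50 bases after a start, 4 of the 37 windows of genes with a higher locus (10.8%) and 0.561% of all 35116 windows held them. 20 of the 23 genes had a window. The windows of ME1, AIFM2 and PIR, which were read before the letters were chosen, had the match at -137, -22 and 26 from the start. The other window was of LRIG1, where the match lay outside the called locus. The loci of ME1, AIFM2 and PIR also count among the 12. The shares of TGACTCAGC were therefore in part fixed by the choice of the letters and are a description. Neither the locus nor the window of SRXN1 held these letters. The looser TGACNNNGC, which includes TGACTCAGC, stood in 37.8% of the windows of genes with a higher locus and 13.3% of all, and TGANTCA, which overlaps it, in 18.9% and 7.71%. The heat shock element letters TTCNNGAA stood in 0 of those 37 windows and in 7.74% of all windows. Over whole loci, TTCNNGAA stood in 63.0% of the higher loci and 60.2% of all, TGACNNNGC in 81.5% and 73.2%, and TGANTCA in 81.5% and 58.4%. The 959 loci that held TGACTCAGC had a median log2 fold change of 0.01, and 515 of them lay above 0. Over all 16122 loci the median was -0.00 and 8008 lay above 0. Of the 959, 12 were called higher and 1, a distal locus near SSR1, was among the 5 lower loci.

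The other promoters that gained H3K4me3 are described by the known roles of their genes, grouped after the calls were seen. The largest fold at a promoter was at the locus that spans the starts of HSF4, a heat shock transcription factor, and NOL3, an inhibitor of apoptosis (chr16:67168436-67175928). Its widest interval had 131 and 116 reads in DMSO and 242 and 209 reads in PR-957, which was 11.5 and 11.1 CPM against 31.1 and 27.3 CPM. The log2 fold change was 1.37 ± 0.18 (SE, n = 2 against 2, edgeR adjusted p = 2.26e-10, DESeq2 adjusted p = 1.02e-05). The locus had 8 intervals of different behaviour. The 4 intervals of its first part differed 2.55 to 2.58-fold, while the 4 intervals of its second part, from chr16:67172271 onwards, differed 1.06 to 1.09-fold. Taking the highest or the narrowest interval, which lie in the second part, therefore ended the call. The gain was in the part that starts at 67168436.

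DNAI1, a subunit of axonemal dynein, and FAM219A shared 1 locus between their starts (chr9:34456819-34459203). It measured 20.3 and 22.3 CPM in DMSO and 38.8 and 37.8 CPM in PR-957 (log2 fold change 0.85 ± 0.14, SE, n = 2 against 2, edgeR adjusted p = 2.80e-06), and it was called under all 15 alternatives. The UNKL promoter (chr16:1376349-1380953), of a zinc finger gene, measured 53.7 and 50.2 CPM in DMSO and 71.0 and 82.2 CPM in PR-957 (log2 fold change 0.56 ± 0.10, SE, n = 2 against 2, edgeR adjusted p = 1.48e-05) and also kept its call under all 15. In both, every PR-957 library lay above every DMSO library. Groups that did not overlap, in either direction, were seen at 5746 of all 16122 tested loci.

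GPR183, CNR2, NLRP12 and RTP4 are known from immune cells or their responses. GPR183, an oxysterol receptor that guides immune cells, measured 44.9 and 43.1 CPM in DMSO and 68.6 and 61.6 CPM in PR-957 (chr13:99303061-99309374, edgeR adjusted p = 7.02e-05). CNR2, the cannabinoid receptor of immune cells, measured 36.4 and 24.6 CPM against 50.6 and 44.1 CPM (chr1:23907464-23914282, edgeR adjusted p = 0.000127), and its DMSO replicates lay far apart. The log2 fold change of CNR2, 0.63 with the widest interval, was 0.12 with the narrowest (edgeR adjusted p = 0.955) and 0.38 when DMSO replicate 2 was left out (edgeR adjusted p = 0.999). NLRP12, a myeloid NLR-family gene, measured 9.87 and 5.25 CPM against 16.1 and 14.9 CPM (chr19:53823586-53825548, edgeR adjusted p = 0.0406). RTP4, an interferon-induced gene, measured 15.6 and 19.5 CPM against 29.7 and 26.0 CPM (chr3:187367212-187370399, edgeR adjusted p = 0.0212). The list of 16 interferon response genes, of which 12 had a locus, had no call, where 0.201% of all genes were called. Its median log2 fold change was 0.03, and 1 gene was higher at an unadjusted p under 0.05, beside 2.75% of all genes. That gene was OAS1, at 5.82 and 4.77 CPM in DMSO and 8.60 and 11.0 CPM in PR-957 (edgeR adjusted p = 0.505). BST2 had an edgeR adjusted p of 0.818.

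GADD45G, a stress-induced gene of growth arrest, measured 41.6 and 35.4 CPM in DMSO and 60.6 and 54.8 CPM in PR-957 (chr9:89602944-89607809, log2 fold change 0.58 ± 0.11, SE, n = 2 against 2, edgeR adjusted p = 8.92e-05). Among genes of cytoskeleton and signalling, INF2, a formin, rose from 26.3 and 24.1 CPM to 43.4 and 38.4 CPM (chr14:104676655-104681836, edgeR adjusted p = 0.000113). SPATA13, a guanine nucleotide exchange factor, rose from 9.25 and 8.68 CPM to 21.6 and 17.1 CPM (chr13:24270092-24272796, edgeR adjusted p = 0.00111). LRIG1, a brake on EGF receptor signalling, measured 16.8 and 21.2 CPM against 34.2 and 25.3 CPM (chr3:66499332-66501827, edgeR adjusted p = 0.0174). EML5, of the microtubule-binding EML family, measured 28.4 and 28.0 CPM against 35.4 and 44.4 CPM (chr14:88791587-88793937, edgeR adjusted p = 0.0407). KCNE3, a regulatory subunit of potassium channels, measured 44.1 and 44.3 CPM against 58.8 and 58.2 CPM (chr11:74458476-74463587, edgeR adjusted p = 0.0461). In none of these did the groups overlap, nor did they at 5746 of all 16122 tested loci. The LRIG1 and EML5 replicates in PR-957 differed by more than those in DMSO.

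The remaining higher promoters belonged to genes best known outside the blood. OTX1 and PAX6 are homeobox transcription factors of the developing brain and eye, and B4GALNT1 encodes the synthase of the gangliosides GM2 and GD2. OTX1 measured 69.4 and 62.8 CPM in DMSO and 92.5 and 83.9 CPM in PR-957 (chr2:63048693-63060636, edgeR adjusted p = 0.00331). The PAX6 locus measured 18.2 and 18.3 CPM against 28.8 and 28.8 CPM (chr11:31808982-31814368, edgeR adjusted p = 0.0189), and that of B4GALNT1 9.96 and 7.44 CPM against 16.4 and 19.6 CPM (chr12:57631733-57634031, edgeR adjusted p = 0.00616). All 3 also carried an H3K27me3 locus.

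**Figure D2:**
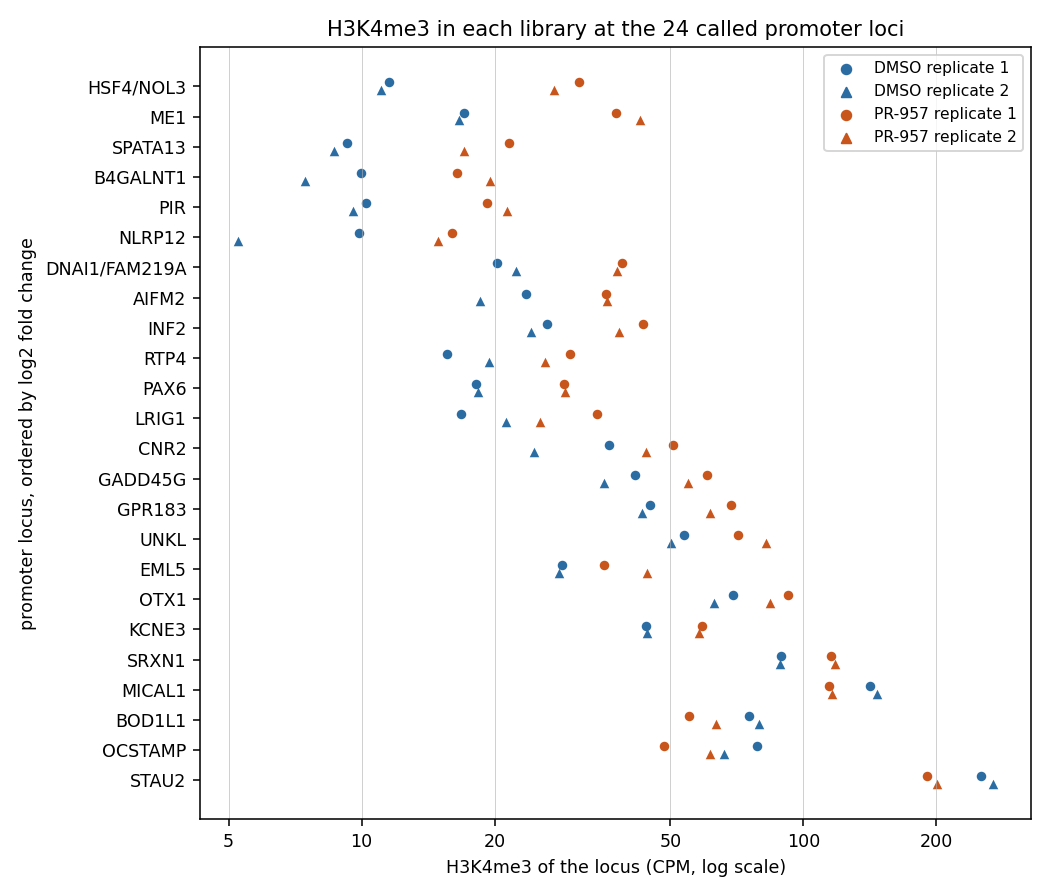
H3K4me3 of each library in CPM (log axis) at the 24 called promoter loci, ordered by log2 fold change, with DMSO in blue, PR-957 in orange, circles for replicate 1 and triangles for replicate 2. At the 20 higher promoters both PR-957 points lie to the right of both DMSO points, the gap is wide at ME1 and HSF4/NOL3, and replicates of CNR2 and NLRP12 spread widely in DMSO. The groups did not overlap at 5746 of all 16122 tested loci.

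Most of these calls were lost in some refit without 1 library, which sets 1 library against 2. The reason for a lost call was not tested. Without DMSO replicate 2, the higher promoters that kept their call were 6: ME1, HSF4 with NOL3, DNAI1 with FAM219A, UNKL, GPR183 and LRIG1. Without PR-957 replicate 1 they were 8, namely ME1, HSF4 with NOL3, DNAI1 with FAM219A, UNKL, AIFM2, PIR, SRXN1 and EML5. There were 14 when DMSO replicate 1 was left out and 14 when PR-957 replicate 2 was. ME1, HSF4 with NOL3, DNAI1 with FAM219A and UNKL were called in all 4 cases. KCNE3 and PAX6 were called in none of them, nor by DESeq2 or with the narrowest interval.

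Away from promoters, 7 loci were higher. The locus of the largest fold lay 20912 bp from the TSS of the splicing factor gene TRA2B (chr3:185959015-185961627). It had 10 and 4 reads in DMSO and 45 and 44 reads in PR-957, and ranked at percentile 0.875 of level. It passed the count filter only through the PR-957 libraries, where it was high, so that its difference is a description and no test, and it lost its call without either DMSO library. The locus 208241 bp from the TSS of OXR1 (chr8:106058284-106061949) measured 19.9 and 24.3 CPM against 45.0 and 38.5 CPM, with a log2 fold change of 0.92 ± 0.13 (SE, n = 2 against 2, edgeR adjusted p = 2.37e-08), and was called under all 15 alternatives. The locus 14210 bp from GPR55, a lipid receptor gene (chr2:230906685-230911016), measured 14.6 and 11.4 CPM against 28.5 and 20.9 CPM (edgeR adjusted p = 0.000712). Those near HDAC4, a histone deacetylase gene (32376 bp), and NEFL, a neurofilament gene (42416 bp), had log2 fold changes of 0.53 and 0.68 (edgeR adjusted p = 0.00537 and 0.00199). The HDAC4 locus lost its call whichever library was left out, and those near NEFL and GPR55 lost theirs when DMSO replicate 2 or PR-957 replicate 1 was. DESeq2 called none of these 3. The 2 others were the locus near TKT and one 37433 bp from DGKG, a diacylglycerol kinase gene (log2 fold change 0.67, edgeR adjusted p = 0.00667), named after its values were seen. The DGKG locus was not called by DESeq2, and it lost its call when either DMSO library or PR-957 replicate 1 was left out.

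Of the 5 lower loci, 4 were at promoters. STAU2, a double-stranded RNA-binding protein gene, had one of the highest H3K4me3 levels of all, at percentile 99.5. It measured 252 and 269 CPM in DMSO and 191 and 200 CPM in PR-957 (chr8:73744821-73749644), with the groups well apart, and fell by 0.42 on the log2 scale (SE 0.08, n = 2 against 2, edgeR adjusted p = 8.92e-05, DESeq2 adjusted p = 2.00e-04). It lost its call without DMSO replicate 2, a setting with 9 calls in all. BOD1L1, which protects stalled replication forks, measured 75.4 and 79.2 CPM against 55.0 and 63.4 CPM (chr4:13625671-13628664, edgeR adjusted p = 0.0243). MICAL1, an actin-oxidising enzyme, measured 142 and 147 CPM against 114 and 116 CPM (chr6:109451874-109458071, edgeR adjusted p = 0.0307). OCSTAMP, a gene of osteoclast fusion, measured 78.6 and 66.0 CPM against 48.3 and 61.6 CPM (chr20:46544027-46554240, edgeR adjusted p = 0.0212), where the nearer replicates of the 2 groups lay close together. The distal locus 43913 bp from SSR1, a translocon-associated gene, measured 31.8 and 26.3 CPM against 17.3 and 17.1 CPM (chr6:7253194-7257450, edgeR adjusted p = 0.00168). DESeq2 called none of BOD1L1, MICAL1, OCSTAMP and SSR1. MICAL1 lost its call whichever library was left out, BOD1L1 in all cases but that of PR-957 replicate 2, and OCSTAMP and SSR1 when DMSO replicate 1 or PR-957 replicate 1 was left out. OCSTAMP was not called after cyclic loess scaling either. The loci just outside the threshold were those of the metallothionein gene MT1E (log2 fold change -0.35, edgeR adjusted p = 0.0510) and of ARRDC4 and NUMBL (log2 fold changes 0.36 and 0.50, edgeR adjusted p = 0.0643 for both).

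No KMT2A target gene was called. Of 21 target genes named in the study, 19 had a promoter locus, at 13 distinct loci, where 0.201% of all genes were called. The list was chosen in the study on cells of this kind, so that its direction is not independent evidence. The median log2 fold change was -0.06, beside -0.02 over all genes, and 4 of 19 lay above 0, beside 5414 of all 12446. Both values count genes and not loci, so that 1 HOXA domain, described below, enters them 7 times. The median was -0.02 when PR-957 replicate 1 was left out and -0.12 when PR-957 replicate 2 was. All 7 genes with an unadjusted p under 0.05 were lower, but they shared 1 locus: HOXA3, HOXA6, HOXA7, HOXA9, HOXA10, HOXA11 and HOXA13 have a TSS within 2 kb of a domain at chr7:27145930-27202678. This domain measured 807 and 768 CPM in DMSO and 668 and 727 CPM in PR-957. The groups did not overlap, but the nearer replicates of the groups, at 768 and 727 CPM, lay closer together than both PR-957 replicates did. The log2 fold change was -0.17 ± 0.07 (SE, n = 2 against 2, edgeR adjusted p = 0.546, DESeq2 adjusted p = 0.847). H3K27ac over the same domain was lower, with a log2 fold change of -0.20 (edgeR adjusted p = 0.00973).

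Outside the HOXA domain, the KMT2A targets were closer still to DMSO. MEIS1, the partner of HOXA9, measured 392 and 403 CPM in DMSO and 379 and 384 CPM in PR-957 (log2 fold change -0.06, edgeR adjusted p = 0.939). PBX3 measured 180 and 185 CPM against 170 and 189 CPM, and FLT3, a receptor kinase of leukemic cells, 212 and 225 CPM against 215 and 231 CPM. The log2 fold changes of both lay within 0.03 of 0. Those of CDK6 (-0.02), CDK9 (-0.01), HOXA4 (0.02), GNAS (-0.05), RUNX2 (-0.06), MEF2C (-0.07) and AXL (0.03) were of the same order. VENTX, the highest of the list, measured 29.8 and 33.1 CPM against 38.3 and 31.6 CPM (log2 fold change 0.15, edgeR adjusted p = 0.900), and its groups overlapped. HOXA2 and HOXA5 had no locus.

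**Figure D3:**
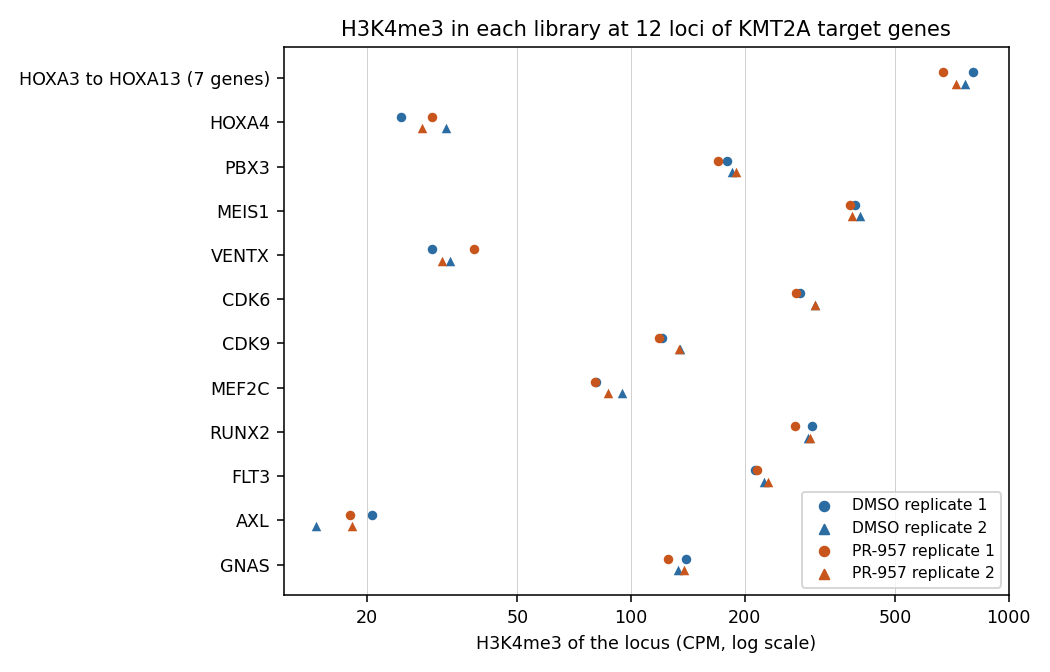
H3K4me3 of each library in CPM (log axis) at 12 of the 13 loci of KMT2A target genes, with DMSO in blue, PR-957 in orange, circles for replicate 1 and triangles for replicate 2. Points of the 2 treatments lie on or beside each other at most loci, and among these 12 only at the shared HOXA domain, at 668 to 807 CPM, and at MEIS1 do both PR-957 points lie to the left of both DMSO points.

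MYC and JUN, both transcription factor genes, had log2 fold changes of -0.06 and -0.01 (edgeR adjusted p = 0.930 and 0.990). MYC measured 575 and 579 CPM in DMSO and 529 and 575 CPM in PR-957 and stood at percentile 99.6 of level. The promoter of KMT2A itself had 223 and 233 CPM against 218 and 214 CPM (log2 fold change -0.08, edgeR adjusted p = 0.919), and that of BASP1, a membrane-attached signal protein gene, 50.1 and 53.1 CPM against 58.6 and 56.4 CPM (log2 fold change 0.16, edgeR adjusted p = 0.852). None of the 19 enzymes and partners of H3K4 methylation was called, where 0.201% of all genes were, and none had an unadjusted p under 0.05. Their median log2 fold change was -0.05, and CXXC1 (-0.12) and KMT2D (-0.09) had the smallest p, with edgeR adjusted p of 0.854 and 0.891.

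No gene of the proteasome was called, where 0.201% of all genes were. The transcription of this group is known to rise through NRF1 when proteasomes are blocked. Of 35 genes of the constitutive proteasome, 33 had a locus, and the median log2 fold change was 0.01. PSMD6 (46.0 and 46.4 CPM in DMSO, 52.7 and 56.1 CPM in PR-957, edgeR adjusted p = 0.626) and PSMA7 (155 and 148 CPM against 165 and 175 CPM, edgeR adjusted p = 0.702) were higher at an unadjusted p under 0.05. PSMB5, the constitutive counterpart of PSMB8, had a log2 fold change of -0.07 (edgeR adjusted p = 0.953). Of the 16 immunoproteasome and MHC class I genes, 4 had a locus. PSMB8, the target of the inhibitor, was among the 12 without one and was not analysed here. No locus lay in the part of chromosome 6 that holds PSMB8, PSMB9, TAP1, TAP2, TAPBP and the HLA class I genes, so that their lack of a locus is no measurement of their promoters. NLRC5, the activator of MHC class I genes, had a log2 fold change of -0.20 (edgeR adjusted p = 0.714) and ERAP1 one of -0.11 (edgeR adjusted p = 0.914).

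In the lists of proteotoxic stress no gene was called, where 0.201% of all genes were. Of 18 heat shock and chaperone genes, 15 had a locus, with a median log2 fold change of -0.08. HSPA8, the constitutive HSP70, measured 203 and 213 CPM in DMSO and 181 and 179 CPM in PR-957 (edgeR adjusted p = 0.410), and DNAJA1, its co-chaperone, 131 and 134 CPM against 114 and 120 CPM (edgeR adjusted p = 0.646). Of 20 genes of the unfolded protein and integrated stress responses, 19 had a locus, with a median of -0.03, and ATF6 (edgeR adjusted p = 0.607) and ASNS (edgeR adjusted p = 0.742) had the smallest p, both below DMSO. Ubiquitin genes had a median of -0.04 (20 of 20 with a locus). TRIP12 measured 134 and 133 CPM against 113 and 111 CPM (edgeR adjusted p = 0.263), and NPLOC4 had a log2 fold change of 0.28 (edgeR adjusted p = 0.586). Autophagy and lysosome genes had a median of -0.01 (18 of 20 with a locus). CTSD, cathepsin D (log2 fold change 0.24, edgeR adjusted p = 0.380), and MAP1LC3B (0.20, edgeR adjusted p = 0.568) were higher at an unadjusted p under 0.05.

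No gene of the growth lists was called, where 0.201% of all genes were. Of 79 cytosolic ribosomal protein genes, 75 had a locus and 11 lay above 0, beside 5414 of all 12446 genes. At an unadjusted p under 0.05, 10 were lower, beside 4.52% of all genes. The median log2 fold change was -0.07. This median was -0.02 when PR-957 replicate 1 was left out and -0.15, with 1 gene called, when PR-957 replicate 2 was. RPS15A measured 95.5 and 93.0 CPM against 72.2 and 84.8 CPM (edgeR adjusted p = 0.281) and RPL12 166 and 168 CPM against 124 and 160 CPM (edgeR adjusted p = 0.328), where PR-957 replicate 1 was the lower in both. The 57 replication-dependent histone genes with a locus, at 29 distinct loci, had a median of -0.05. The smallest p was at the locus of H2AC19 and H3C15, which was higher (36.1 and 34.3 CPM against 43.9 and 40.7 CPM, edgeR adjusted p = 0.630). G1 cyclins and CDK inhibitors had a median of -0.02 (14 of 16 with a locus, CDKN1B at -0.20 and CCNE1 at -0.13, edgeR adjusted p = 0.513 and 0.852), and BCL2 family genes one of -0.04 (15 of 15 with a locus, BAD and BCL2 at -0.18, edgeR adjusted p = 0.603 for both).

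No gene of either myeloid list was called, where 0.201% of all genes were. Of 18 myeloid transcription factors, all with a locus, the median log2 fold change was 0.01. SPI1, which encodes PU.1, measured 270 and 267 CPM in DMSO and 209 and 251 CPM in PR-957 (log2 fold change -0.22, edgeR adjusted p = 0.328), while KLF2 measured 82.5 and 85.2 CPM against 97.5 and 102 CPM (0.25, edgeR adjusted p = 0.336). Of 22 myeloid surface and granule genes, 10 had a locus. LYZ, lysozyme, measured 37.5 and 37.0 CPM against 49.4 and 45.4 CPM (0.35, edgeR adjusted p = 0.268), and LGALS3, galectin-3, 27.8 and 23.8 CPM against 34.9 and 30.5 CPM (0.34, edgeR adjusted p = 0.546), while the median of the list was -0.05. AP-1 and NF-kB genes (19 of 19 with a locus) had a median of -0.05, with RELB at -0.28 (edgeR adjusted p = 0.471) and NFKBIE at -0.19 (edgeR adjusted p = 0.586). Cytokine and chemokine genes had a median of 0.33, but 5 of 16 had a locus, at a median level percentile of 30.9. The median was 0.16 after cyclic loess scaling and 0.15 when PR-957 replicate 1 was left out. CSF1 (edgeR adjusted p = 0.838) and CXCL8 (edgeR adjusted p = 0.858) had the smallest p there.

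**Figure D4:**
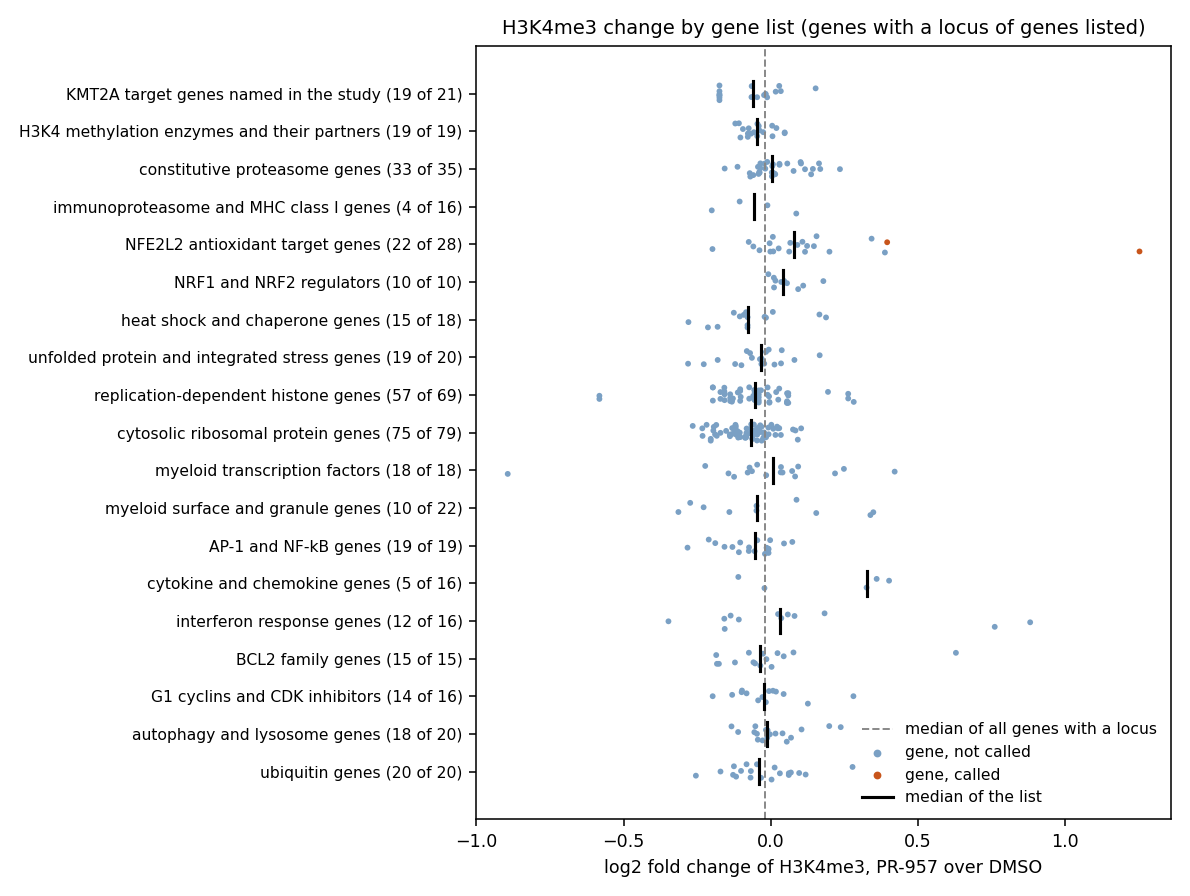
Log2 fold change of H3K4me3, PR-957 over DMSO, for each gene with a promoter locus in 19 gene lists, with the median of each list as a black bar and the median of all genes, -0.02, as a dashed line; vertical scatter within a list has no meaning. The called genes (orange) are ME1 and SRXN1, both in the NFE2L2 list, and the medians of most lists lie within 0.08 of 0.

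The other modifications at the same places showed how far the gain in H3K4me3 was shared. Of the 27 higher loci, 23 overlapped an H3K27ac locus. H3K27ac, a mark of active promoters and enhancers, was above 0 at 17 of the 23 with a median log2 fold change of 0.40, beside -0.02 over all 13354 matched loci tested. None of the 23 was called by itself, where 40 of 30621 H3K27ac loci were (0.131%). ME1 had a log2 fold change of 0.73 ± 0.25 (SE) in H3K27ac and AIFM2 one of 0.64 ± 0.26 (SE), with edgeR adjusted p of 0.375 and 0.543, while UNKL (0.03) and PIR (-0.03) were near 0. A test of the difference between H3K4me3 and H3K27ac in the response to PR-957, over 13357 loci, called 1 locus (0.00749%) and none of the higher ones. In this edgeR test the unadjusted p was under 0.05 at 10 of the 23 higher loci, beside 908 of all 13357. The higher loci were selected by their H3K4me3, so that these shares are a description. For ME1 the difference was 0.51 (edgeR adjusted p = 0.788). The called locus was a cluster of histone genes on chromosome 6 (27806237 to 27817168), where H3K27ac fell by 0.53 on the log2 scale and H3K4me3 had a log2 fold change of -0.04.

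H3K4me1, the mark of enhancers and promoter flanks, was tested at 22 of the 27 higher loci. It was above 0 at 10 of them, with a median log2 fold change of -0.07, beside -0.15 over all 9672 matched loci. The DNAI1 and FAM219A locus was called higher in H3K4me1 (5.12 and 7.44 CPM in DMSO, 12.8 and 17.4 CPM in PR-957, edgeR adjusted p = 0.00772), where 544 of 34927 loci were called (1.56%). The test of the difference between H3K4me3 and H3K4me1 called 1 of 9672 loci (0.0103%), the HSF4 and NOL3 locus, where H3K4me1 had a log2 fold change of -0.08 and the difference was 1.44 (edgeR adjusted p = 0.0487). In this test H3K4me1 was matched to the whole locus, so that its count may come from another stretch than the part that gained H3K4me3. The unadjusted p of this edgeR test was under 0.05 at 17 of the 22 higher loci, beside 1428 of all 9672. This too is a description, since the higher loci were selected by their H3K4me3. The call at HSF4 and NOL3 was lost with library size only. It was also lost when DMSO replicate 2 or either PR-957 library of H3K4me3 was left out, with all H3K4me1 libraries kept.

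H3K27me3, the Polycomb mark, overlapped 8 of the 27 higher loci (29.6%), beside 15.4% of all tested loci. It was lower at 6 of the 8 at an adjusted p under 0.05: at HSF4 with NOL3, GADD45G, OTX1, PAX6 and B4GALNT1 and at the locus near NEFL. Over all H3K27me3 loci, 498 of 12355 (4.03%) were called, and of the 2435 that matched a tested H3K4me3 locus, 16.4% were called lower. H3K27me3 was counted in its own matched locus, which may extend beyond the H3K4me3 locus, and these shares were not matched for level. The median log2 fold change was -0.45 at the 8 loci and -0.13 at all 2435. GADD45G measured 179 and 169 CPM of H3K27me3 in DMSO and 111 and 113 CPM in PR-957 (log2 fold change -0.63, edgeR adjusted p = 6.27e-07). The wide PAX6 domain measured 5601 and 5642 CPM against 4129 and 3917 CPM (-0.48, edgeR adjusted p = 1.15e-13). HSF4 with NOL3 (-0.62) and OTX1 (-0.48) were lower with edgeR adjusted p of 2.05e-11 and 8.08e-11, and B4GALNT1 (-0.21) with 0.0167. LRIG1 (-0.42, edgeR adjusted p = 0.374) and EML5 (0.50, edgeR adjusted p = 0.762) were not called. ME1, SRXN1, PIR and AIFM2 had no H3K27me3 locus, nor had any of the 5 lower loci.

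**Figure D5:**
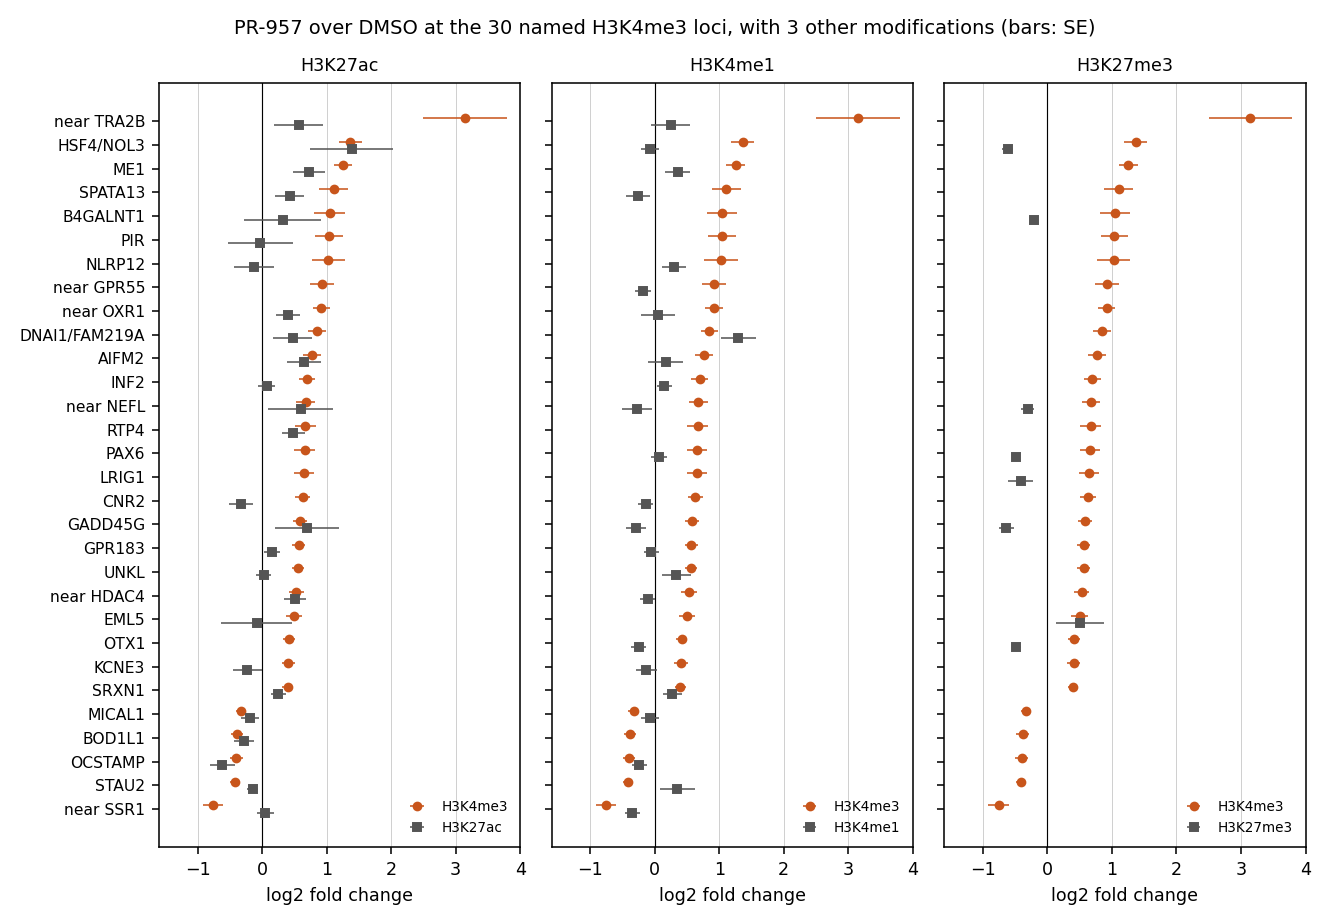
Log2 fold change, PR-957 over DMSO, of H3K4me3 (orange) beside H3K27ac, H3K4me1 and H3K27me3 (grey squares, 1 panel each) at the 30 named loci, with bars of 1 SE and no square where the other modification had no tested locus. H3K27ac lies to the right of 0 at most loci that gained H3K4me3, H3K4me1 lies around 0 except at DNAI1/FAM219A, and H3K27me3 lies to the left of 0 at 7 of the 8 loci that have it.

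The higher loci lay at promoters in 20 of 27 cases (74.1%), as did 71.8% of all tested loci, and their median GC content was 54.2%, beside 51.9%. Their median level was at percentile 39.6, and that of the 5 lower loci at percentile 79.7, beside 50.0 for all. An H3K4me1 locus overlapped 81.5% of the higher loci and 60.0% of all, and an H3K27ac locus 85.2% and 82.8%. All 5 lower loci and 21 of the 27 higher ones held 4 intervals.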

How the data were processed

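Cut&Tag libraries of MOLM-13 cells were sequenced by the authors, who deposited raw read counts per peak interval. Per the processing notes of the submitters, reads were trimmed with Trimmomatic 0.39 and aligned to hg38 with Bowtie2 2.2.5, and Picard 2.27.1, SAMtools 1.7, SEACR 1.3 and deepTools 3.5.1 were used. The study names MACS2 or SEACR for peaks. The read counter and the handling of duplicates are not given in the sources used here. Overlapping intervals count the same reads more than once, so 1 interval per locus was kept. PCR reads without molecular identifiers are not independent molecules, which makes counting error too small.

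Counts were tested with edgeR 4.0.16 (R 4.3.3; filterByExpr, minimum count 10; TMM; quasi-likelihood; Benjamini-Hochberg over all loci; threshold 0.05). limma 3.58.1 and DESeq2 1.42.0 served alternatives, and tables were made in Python 3.11.15. A gene took the locus of highest mean CPM within 2 kb of a GENCODE 44 protein-coding TSS. Loci of 2 modifications were matched by an overlap of at least 1 bp between whole loci, so that the intervals counted can lie in different stretches. The response was compared in an edgeR interaction term. Tests were checked on simulated data. Named loci were all called promoter loci, up to 5 distal loci per direction by p, and in each list the called genes and those of the 2 smallest p. The loci, gene lists and rules were chosen with earlier results of these data known. Both IgG libraries were not analysed here, and values of 1 KMT2A target gene are not reported here.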

Additional observations from a re-analysis of the deposited data

Results flagged for a closer look

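The response to PR-957 differed between modifications at 2 loci by the interaction test. At the locus of H3C10, H2BC13, H2BC14, H2AC13 and H2AC14, a cluster of histone genes, H3K4me3 measured 209 and 229 CPM in DMSO and 208 and 217 CPM in PR-957, while H3K27ac measured 736 and 720 CPM against 513 and 496 CPM. The difference of log2 fold changes was 0.49 ± 0.09 (SE, n = 2 against 2, edgeR adjusted p = 0.0270). This call was lost when PR-957 replicate 2 of H3K4me3 was left out, with all H3K27ac libraries kept.

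At HSF4 and NOL3, the difference between H3K4me3 and H3K4me1 was 1.44 ± 0.23 (SE, n = 2 against 2, edgeR adjusted p = 0.0487). The widest interval of this locus, which gave its H3K4me3 count, lies in the part that gained H3K4me3. H3K4me1 was matched to the whole locus, so that its count may come from another stretch. The call was lost with library size only. It was also lost when DMSO replicate 2, PR-957 replicate 1 or PR-957 replicate 2 of H3K4me3 was left out, with all H3K4me1 libraries kept. H3K4me1 measured 38.2 and 37.4 CPM in DMSO and 36.4 and 35.3 CPM in PR-957.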

How the results depend on the processing

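All 30 named loci kept their direction in all 448 refits, 352 refits kept the call and 96 lost it, and 4 loci were called throughout. These 30 loci had been called in the same counts, with groups that did not overlap, so that a kept direction is no independent evidence. The 32 calls (24 at promoters) became 7 (5) with DESeq2, 19 (13) when at least 1.5-fold was also required, and 47 (37) with library size only. Leaving out 1 library gave 9 to 39 calls in all and 7 to 33 at promoters. Without PR-957 replicate 2, 15 of 39 calls were lower, against 5 of 32. The called difference from H3K27ac became 0 to 5 loci when 1 library was left out. That from H3K4me1 became 0 to 84 loci, 0 with library size only and 72 with the replicate block. In these tests of a difference, the library left out was of H3K4me3, and all libraries of the other modification were kept. The causes were not tested.

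Replicate numbers are shared by both treatments, but the labels do not say that a number marks a batch, and 2 pairs are too few to settle it. Deviations of same-numbered libraries correlated at 0.174. With the replicate block, 35 loci were called, 27 higher and 8 lower, of which 30 were among the 32, and 25 at promoters. KCNE3 (edgeR adjusted p = 0.0518) and EML5 (edgeR adjusted p = 0.0517) lost their call. The block gave 1 locus for H3K27ac.

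Small changes were mostly missed in simulated counts of these libraries: 23.5% of simulated 1.25-fold changes were recovered. Whether depth or the number of libraries set this limit was not tested.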
